A study of Mus musculus with 16 samples.

Results

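Loss of natriuretic peptide receptor 1 (Npr1) was examined in the ventricles of female mice as a single effect averaged over nulliparous and lactating mothers. All 16 arrays of the series entered, 8 from Npr1-/- and 8 from Npr1+/+ mice. For each gene the difference between genotypes was taken within each state and the 2 differences were averaged, so that a shift between the states themselves did not enter. The groups were nulliparous Npr1+/+, nulliparous Npr1-/-, Npr1+/+ mice at 2 weeks of lactation and Npr1-/- mice at the same stage, with 4 independent mice and 4 arrays in each. All mice were female and the tissue was ventricle, and the labels used here do not state the age, the strain background or the construction of the null allele. The question was which transcripts differ with receptor loss whatever the reproductive state, including those that a comparison of 4 against 4 mice may miss.

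Npr1, also called guanylyl cyclase A, is the membrane receptor for the atrial and B-type natriuretic peptides, which cardiac muscle cells release when they are stretched. Binding of peptide makes the receptor convert GTP into cyclic GMP, which acts through protein kinase G and through phosphodiesterases. Through this pathway the peptides relax vessels, promote salt loss and restrain cardiac growth and fibrosis.

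Levels are given as log2 of the spot signal minus the array's own 75th percentile, so a value of 0 is the brightness of the 75th percentile probe and a difference of 1 is a doubling. A level may be compared between arrays for 1 gene but not between genes, because each probe has its own brightness. The 75th percentile signal ran from 164.7 to 347.4 over the arrays, and 48.2% to 58.6% of probes were well above background. Of the 21154 genes with a named probe, 14060 entered the tests, namely those whose probe the scanner software called well above background throughout at least 1 group of 4 arrays. Differences are Npr1-/- minus Npr1+/+, with the standard error (SE) of limma's fit, and "called" means that the p adjusted by Benjamini and Hochberg's method across these 14060 genes was under 0.05. The number of arrays limits the precision.

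The labelled tissue and genotype were looked at first. All 16 of 16 ventricular cardiomyocyte markers were tested, and Myh6, the cardiac alpha myosin heavy chain, read 9.98 to 11.01 on every array. Npr1 had a single probe. It rose above background on 9 of 16 arrays, failed the filter and differed between genotypes by 0.11 ± 0.17 in a fit with no filter (limma's adjusted p = 0.856). Its position relative to the altered part of the gene is not known here, so it checks nothing and genotype rests on the labels. Arrays separated first by reproductive state, on a first component with 53.6% of the variance. Nulliparous knockout replicate 4 lay at 14.54 on it, outside the range of the other nulliparous arrays (-46.91 to -39.33) and below the lactating arrays (27.64 to 41.93). Its levels correlated more with the lactating arrays (mean r = 0.986) than with the other arrays of its own group (0.975), against its label. For several results the values without it are given as well. Each group occupied the same array column on both slides, so column and group cannot be told apart.

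Averaged over states, 39 genes were called between genotypes, with 22 higher and 17 lower in Npr1-/- ventricles. That is 0.277% of the genes tested, 0.156% higher and 0.121% lower. The strongest falls were in a group of genes best known from fat tissue, among them Cidec, Cfd and Adipoq. A second set kept its direction in both states with no interaction called, with Anxa9 and Slco2a1 higher and Igf2 and Cxcl14 lower. A further set, with Tchhl1 and Plaat1, was called between genotypes in 1 state and entered the average mainly through it. By fitted values 10 of the 39 were over 2-fold higher and 11 over 2-fold lower, but for Crispld1 and Tchh among the 10, which were below background in a whole group, the rise shown is only at least 1.80-fold and at least 1.79-fold. At an unadjusted p under 0.05 there were 924 genes higher (6.57%) and 627 lower (4.46%), 11% of those tested, so most shifts did not pass the adjustment. The median difference of all genes was 0.029. When arrays were centred on their median in place of the 75th percentile that median became 0.10 and the split of calls 56 higher and 13 lower (81.2% higher, against 56.4%). Without nulliparous wild-type replicate 1 the average gave 21 calls, without lactating knockout replicate 4 it gave 24, and without nulliparous knockout replicate 4 it gave 53.

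The average and the within-state contrasts use the same arrays and are set side by side only as descriptions. Within nulliparous mice 14 genes were called (0.0996%) and within lactating mice 28 (0.199%). Of the 39 genes called in the average, 4 were called in both states (Cidec, Cfd, Anxa9 and Igf2), 8 in nulliparous mice only, 14 in lactating mice only and 13 in neither. Those 13 were 9 higher and 4 lower. The median SE over all genes was 0.0992 for the average and 0.14 for a single state. The sign was the same in both states for 34 of the 39 genes. Over all 14060 genes the nulliparous and lactating differences, which come from different mice, had the same sign in 54.8%, with a Pearson r of 0.224 and a Spearman rho of 0.166 across genes, which are not independent replicates. The test of the interaction called 13 genes (0.0925%), 9 of them among the 39.

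**Figure D1:**
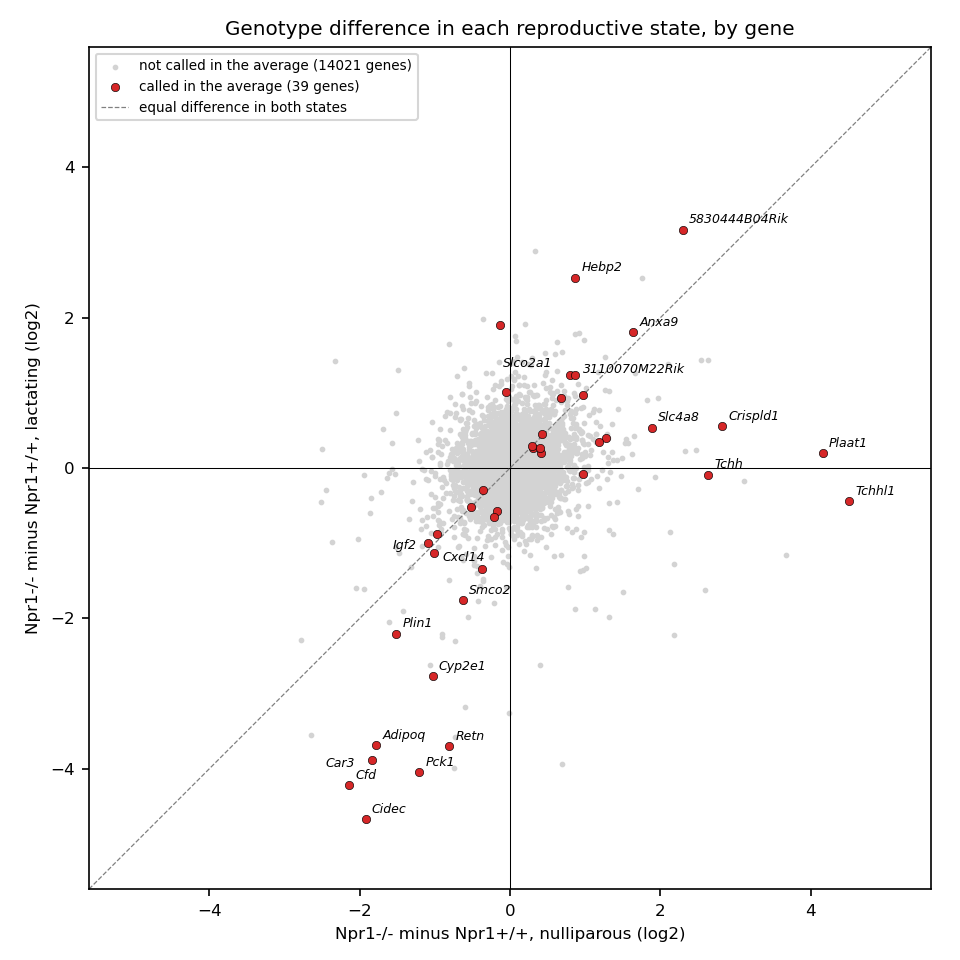
Genotype difference in nulliparous mice (x axis, log2) against that in lactating mice (y axis, log2) for 14060 genes, with the 39 genes called in the average in red and the dashed line marking equal differences. Cidec, Cfd, Car3, Adipoq, Pck1 and Retn lie below the line at the lower left, Anxa9, Igf2 and Cxcl14 lie close to it, and Tchhl1, Plaat1, Crispld1 and Tchh lie far to the right near a lactating difference of 0.

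Of the genes that fell, 5 belong to the list of adipocyte markers. Cidec coats lipid droplets and lets them fuse, Plin1 is the main droplet coat protein of fat cells, Adipoq and Retn are the adipocyte hormones adiponectin and resistin, and Cfd is the complement protease adipsin. Because these members moved together, the 250 bases before each annotated start are shown, from RefSeq on GRCm38.p6 and 5′ to 3′ in the direction of the gene, with both starts of Cidec. Capitals mark matches to the C/EBP motif TTNNGCAA on either strand.
Cidec, chr6:113435761-113436010, minus strand: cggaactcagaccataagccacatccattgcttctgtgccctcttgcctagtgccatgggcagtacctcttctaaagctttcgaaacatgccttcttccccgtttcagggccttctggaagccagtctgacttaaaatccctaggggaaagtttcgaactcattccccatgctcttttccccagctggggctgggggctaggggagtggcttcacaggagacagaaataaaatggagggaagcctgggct
Cidec, chr6:113434765-113435014, minus strand: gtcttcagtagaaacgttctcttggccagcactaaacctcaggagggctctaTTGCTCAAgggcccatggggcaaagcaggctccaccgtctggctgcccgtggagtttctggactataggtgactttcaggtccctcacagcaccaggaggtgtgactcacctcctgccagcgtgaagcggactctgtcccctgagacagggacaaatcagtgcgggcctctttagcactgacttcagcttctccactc
Plin1, chr7:79732777-79733026, minus strand: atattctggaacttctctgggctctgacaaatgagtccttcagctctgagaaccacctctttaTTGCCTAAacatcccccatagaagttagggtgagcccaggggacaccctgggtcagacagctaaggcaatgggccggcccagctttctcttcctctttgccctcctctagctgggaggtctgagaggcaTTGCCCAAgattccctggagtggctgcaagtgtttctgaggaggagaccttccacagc
Adipoq, chr16:23146286-23146535, plus strand: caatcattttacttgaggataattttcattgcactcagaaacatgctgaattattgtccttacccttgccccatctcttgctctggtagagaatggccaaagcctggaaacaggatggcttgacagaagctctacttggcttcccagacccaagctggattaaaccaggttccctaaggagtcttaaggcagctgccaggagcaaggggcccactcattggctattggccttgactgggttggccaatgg
Cfd, chr10:79890603-79890852, plus strand: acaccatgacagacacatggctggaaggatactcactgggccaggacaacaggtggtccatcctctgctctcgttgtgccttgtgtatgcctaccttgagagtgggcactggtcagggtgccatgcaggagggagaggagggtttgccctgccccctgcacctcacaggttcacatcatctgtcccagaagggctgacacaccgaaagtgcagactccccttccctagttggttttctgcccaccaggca
Retn, chr8:3655520-3655769, plus strand: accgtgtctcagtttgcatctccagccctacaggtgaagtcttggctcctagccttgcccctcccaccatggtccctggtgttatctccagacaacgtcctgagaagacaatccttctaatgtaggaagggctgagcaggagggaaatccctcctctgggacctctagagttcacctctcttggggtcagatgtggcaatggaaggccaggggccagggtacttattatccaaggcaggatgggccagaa
C/EBP factors and PPARG are the main regulators of the adipocyte programme. The motif was present in 1 of the 2 Cidec windows and, with 2 copies, in the Plin1 window, which makes 2 of 6 windows. It was present in 1112 of 14189 windows of the genes tested (7.84%), of which 11173 of 14060 had a window. The idealised PPAR and RXR site, a pair of AGGTCA half-sites with any 1 base between them, was in 0 of the 6 and in 4 of all 14189 windows, in a search of both strands. A match is a description of these letters and not a site.

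Cidec was the gene with the smallest adjusted p. It read -1.47, -1.68, -1.61 and -1.47 in nulliparous Npr1+/+ ventricles and -3.22, -3.06, -4.19 and -3.43 in nulliparous Npr1-/- ventricles. In lactating mice it read -1.26, -0.90, -1.82 and -0.51 with the receptor and -5.72, -6.06, -5.10 and -6.28 without it. All 8 knockout arrays lay below all 8 wild-type arrays, and none of the 4 lactating knockout arrays was well above background. The average difference was -3.29 ± 0.21 (limma's adjusted p = 2.52e-06). A second Cidec probe, above background on only 2 arrays, gave -1.03. Where no array of a group was above background the fold is a bound, taken with each such array set to its lowest signal that still passed as above background where that was higher, and for Cidec it was at least 6.73-fold lower in the average and at least 12-fold lower in lactation. The fall was 1.92 in nulliparous mice (adjusted p = 0.0264), and the difference between the states was called (-2.75, adjusted p = 0.018). Fitted differences that involve a group with no array above background, interactions included, rest partly on signal below background and are no measure of size.

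Cfd was above background on every array. Its nulliparous values were 1.51, 1.30, 1.35 and 2.18 with the receptor and -0.75, -0.97, -0.89 and 0.39 without it. Its lactating values were 2.12, 2.98, 1.41 and 2.90 against -1.67, -1.80, -1.86 and -2.10. The genotypes did not overlap, although nulliparous knockout replicate 4 stood 1.26 above the mean of the other 3 arrays of its group. The average difference was -3.18 ± 0.25, which is 9.04-fold lower (adjusted p = 1.72e-05), with 4.41-fold in nulliparous and 18.6-fold in lactating mice. The interaction was not called for Cfd (-2.07, 95% interval -3.13 to -1.02, adjusted p = 0.297).

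Adipoq read -1.89, -2.13, -2.56 and -2.00 in nulliparous wild-type and -4.02, -3.91, -4.68 and -3.09 in nulliparous knockout ventricles. In lactation it read -1.23, -1.03, -1.33 and -0.39 against -5.30, -4.43, -3.92 and -5.07. Again the 8 knockout arrays were all below the 8 wild-type arrays, and 1 of 4 knockout arrays was above background in each state. The average was 6.65-fold lower (-2.73 ± 0.24, adjusted p = 4.32e-05). By fitted values Adipoq was 3.43-fold lower in nulliparous (adjusted p = 0.0678) and 12.9-fold lower in lactating mice (adjusted p = 6.42e-05). Its interaction of -1.91 (interval -2.93 to -0.88) was not called (adjusted p = 0.341). Plin1, above background on 2 of 4 nulliparous and 1 of 4 lactating knockout arrays, fell by a fitted 1.86 ± 0.26 (adjusted p = 0.00492), with nulliparous values of -3.54 to -2.48 against -5.31 to -3.93 and lactating values of -3.70 to -2.92 against -6.56 to -4.65. The genotypes did not overlap in either state for Plin1, and its interaction was -0.69 (interval -1.82 to 0.44, adjusted p = 0.864). Retn, a call outside the naming rule that was chosen after its values were seen, fell by 2.25 ± 0.34 (adjusted p = 0.00727). Its lactating arrays ran from -1.05 to 0.38 against -5.66 to -3.16, while its nulliparous arrays overlapped, from -3.18 to -2.29 against -4.22 to -2.97. Retn was above background on 2 of 4 nulliparous and 3 of 4 lactating knockout arrays.

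A trio of further genes that are abundant in fat tissue, though not in the marker list, fell beside them. Car3 is a carbonic anhydrase found in fat and slow muscle, Pck1 makes the glycerol backbone of stored triglyceride and Cyp2e1 is a cytochrome P450 of liver and fat. Car3 read 1.08, 1.15, 0.33 and 1.17 in nulliparous wild-type and -0.98, -0.60, -1.29 and -0.75 in nulliparous knockout ventricles. In lactation it read 0.17, 0.43, -0.26 and 1.35 against -2.95, -4.0, -2.88 and -4.03. The arrays of the genotypes were apart in both states, and the average was 7.28-fold lower (-2.86 ± 0.24, adjusted p = 3.83e-05). By fitted values Car3 was 3.58-fold lower in nulliparous (adjusted p = 0.0678) and 14.8-fold lower in lactating mice (adjusted p = 4.91e-05). Its interaction of -2.05 (interval -3.09 to -1.01) was not called (adjusted p = 0.297). For Car3, 2 of 4 lactating knockout arrays were above background. Pck1 overlapped narrowly in nulliparous mice, at -2.91 to -2.38 against -4.60 to -2.86, and was below background on all 4 lactating knockout arrays. The overlap came from nulliparous knockout replicate 4 (-2.86), as the other arrays of its group read -4.60, -3.71 and -4.30. Pck1 was at least 4.00-fold lower in the average (-2.62 ± 0.24, adjusted p = 5.11e-05) and at least 6.95-fold lower in lactation, with a called interaction (-2.84, adjusted p = 0.0309). Cyp2e1 fell by 1.90 ± 0.23 (adjusted p = 0.000831), with 2.04-fold in nulliparous (adjusted p = 0.399) and 6.82-fold in lactating mice (adjusted p = 0.000633). Its interaction of -1.74 (interval -2.71 to -0.77) was not called (adjusted p = 0.386).

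**Figure D2:**
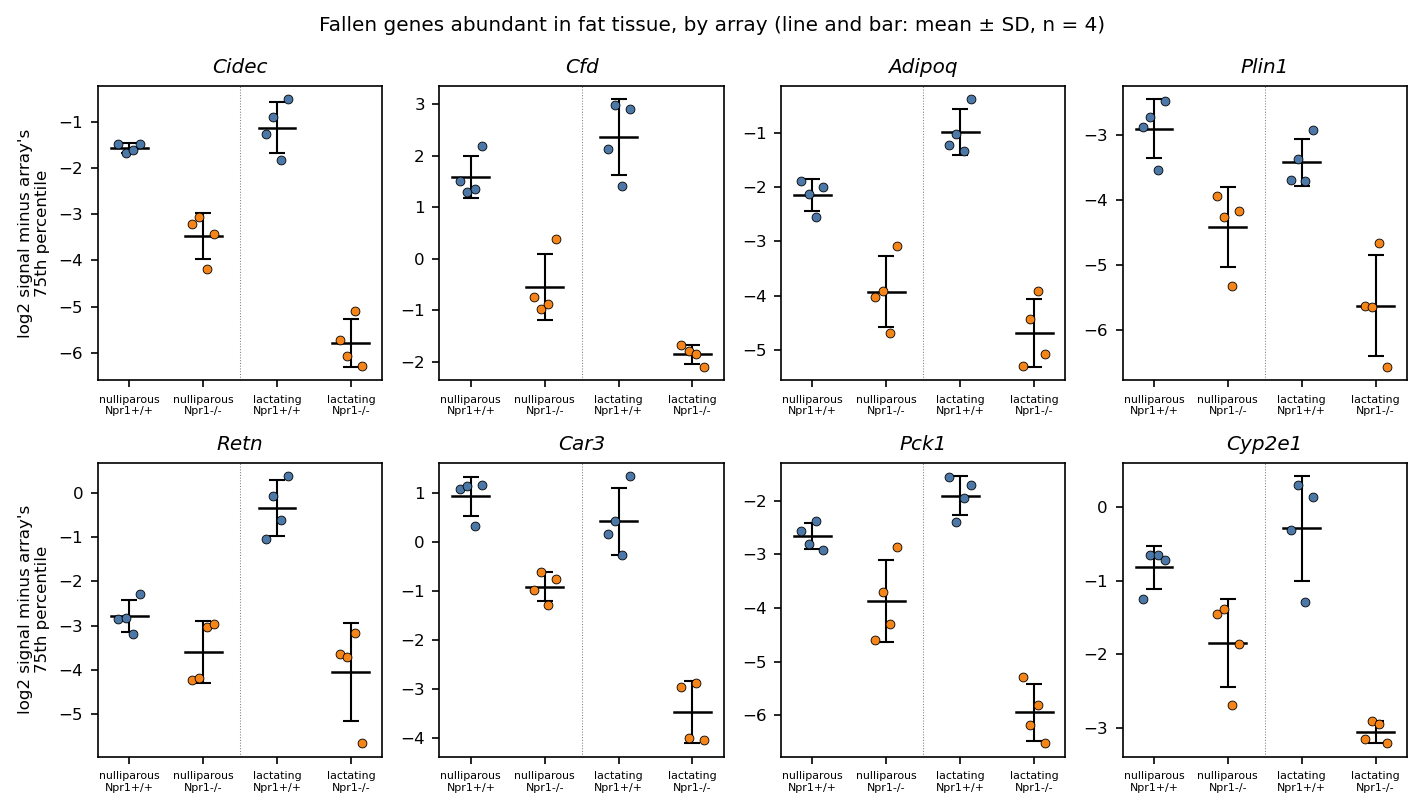
Level of 8 fallen genes on each array (y axis, log2 level relative to the 75th percentile) in the 4 groups, with points for single mice and lines and bars for the mean ± SD of 4. Knockout arrays (orange) lie below wild-type arrays (blue) in both states for Cidec, Cfd, Adipoq, Plin1, Car3 and Cyp2e1, while the nulliparous arrays of Retn and Pck1 overlap.

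The remaining adipocyte markers were not called. Of 16 listed, 14 were tested and 5 were called, all lower, with 0 higher and a list median of -0.12, beside 0.029 for all genes. Fabp4, the fatty acid carrier of adipocytes that endothelium also makes, differed by 0.001, Cidea by 0.14 and the lipase gene Lipe by -0.05. The lipid synthesis genes Fasn, Scd1, Acaca and Dgat2 lay between -0.14 and 0.05. The leptin gene Lep and the brown fat gene Ucp1 failed the filter. The summed level of the list, in multiples of the array's 75th percentile, came mostly from the bright probes of Dgat2, Fabp4 and Plin4 and so says little of the 5 called genes. It overlapped between genotypes, at 521 to 788 against 616 to 813 in nulliparous and 505 to 659 against 483 to 578 in lactating mice. Pparg, the adipocyte master regulator, differed by 0.06 (adjusted p = 0.90). The part that fat adhering to or lying within the ventricle had in these values was not tested, and in bulk tissue fewer cells of a type and less RNA per cell cannot be told apart.

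All 8 falls were called after leaving out any 1 of the 16 arrays and after normexp background correction. Normexp gave smaller differences of -1.13 for Cidec, -1.04 for Adipoq and Retn, -0.81 for Pck1 and -0.47 for Plin1. It gave -1.85 for Car3, -1.2 for Cyp2e1 and -2.69 for Cfd. On slide 1 and slide 2 apart the differences were -3.19 and -3.40 for Cidec, -3.28 and -3.07 for Cfd and -2.85 and -2.62 for Adipoq. With a filter that required all 16 arrays above background, only Cfd of the 5 list members was still tested, and on slide 2 alone 0 of the 5 were called.

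Genes that kept their direction in both states with no interaction called came next. The genotypes were apart in both states, in the same direction, in 52 of 14060 genes (0.37%), 27 higher (0.192%) and 25 lower (0.178%), and the rule for named genes drew partly on this. Anxa9, a member of the annexin family of membrane-binding proteins, read -2.91, -2.76, -3.78 and -2.86 in nulliparous wild-type and -0.93, -0.81, -1.69 and -2.33 in nulliparous knockout ventricles. In lactation it read -3.49, -3.50, -3.35 and -3.31 against -1.55, -1.73, -1.63 and -1.52. All 8 knockout arrays were above all 8 wild-type arrays. The average was 3.30-fold higher (1.72 ± 0.20, adjusted p = 0.000646), with 1.64 in nulliparous and 1.80 in lactating mice. The difference between those was 0.16, with a 95% interval of -0.69 to 1.02.

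Slco2a1, the prostaglandin transporter that takes prostaglandins out of the extracellular space, read -0.82, -1.10, -1.43 and -1.16 against -0.10, -0.42, -0.04 and -0.77 in nulliparous mice. In lactating mice it read -1.08, -1.17, -1.09 and -1.11 against 0.29, -0.13, -0.19 and 0.49. No wild-type array reached the lowest knockout array, and the average was 2.02-fold higher (1.01 ± 0.13, adjusted p = 0.00115; interaction 0.44, interval -0.10 to 0.98). Over all 8 against 8 arrays the genotypes did not overlap in 11 of 14060 genes (0.0782%), 5 of them higher (0.0356%) and 6 lower (0.0427%) in knockouts. Hebp2, a haem-binding protein of the SOUL family, was a further such gene. It read -4.30 to -2.70 against -2.54 to -2.18 in nulliparous and -4.84 to -4.05 against -1.80 to -1.72 in lactating mice. Its average was 1.70 ± 0.19 (adjusted p = 0.000525), with 0.87 in nulliparous and 2.53 in lactating mice and an interaction of 1.66 (95% interval 0.84 to 2.49) that was not called (adjusted p = 0.294). Hebp2 was above background on 3 of 4 nulliparous and 1 of 4 lactating wild-type arrays. Its lactating rise and interaction thus rest partly on signal below background.

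Igf2, the insulin-like growth factor of fetal growth, was the fallen counterpart. Its nulliparous values were -1.18, -1.08, -1.06 and -1.33 with the receptor and -1.74, -2.29, -2.09 and -2.89 without it. Its lactating values were -1.98, -2.19, -2.03 and -2.39 against -2.98, -3.10, -3.25 and -3.23. The genotypes were apart within each state but not over all arrays, since lactating wild-type ventricles lay in the range of nulliparous knockouts. Igf2 fell by 1.04 ± 0.13 (2.06-fold, adjusted p = 0.00115), by 1.09 in nulliparous and 1.00 in lactating mice, and the interval of the difference was -0.46 to 0.65. The calls for Anxa9, Slco2a1, Hebp2 and Igf2 held without any 1 array and after normexp, with differences of 0.69, 0.73, 0.57 and -0.47. Without nulliparous knockout replicate 4 the averages were 1.87, 1.08, 1.71 and -0.93.

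The 13 genes called in neither state alone were mostly modest shifts. Prpf19, a ubiquitin ligase of the spliceosome, read 2.96, 3.12, 2.97 and 2.95 against 3.36, 3.50, 3.27 and 3.59 in nulliparous mice and 3.42, 3.14, 3.22 and 3.35 against 3.80, 3.84, 3.55 and 3.77 in lactating mice. It did not overlap within a state and was 1.36-fold higher (0.44 ± 0.07, adjusted p = 0.00727; 0.161 and 0.0861 in the single states). Chrnb4, a nicotinic acetylcholine receptor subunit of autonomic neurons, fell by 0.52 ± 0.08 (adjusted p = 0.00692), by 0.52 in each state, with an interaction interval of -0.34 to 0.33. Its values were -2.99 to -2.61 against -3.48 to -3.30 and then -3.42 to -2.96 against -3.87 to -3.55. Both calls held without any 1 array, but normexp reduced Chrnb4 to -0.21 (adjusted p = 0.217) and left Prpf19 at 0.45.

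Cxcl14, a chemokine made by stromal cells, fell by a similar amount in both states. It read 3.45, 3.68, 3.41 and 3.00 against 2.00, 2.47, 2.41 and 2.61 in nulliparous mice and 3.02, 2.48, 3.27 and 2.70 against 2.24, 1.28, 2.22 and 1.23 in lactating mice. The genotypes were apart within each state, and the average was 2.10-fold lower (-1.07 ± 0.18, adjusted p = 0.0187; interaction interval -0.87 to 0.66). Without nulliparous wild-type replicate 1 the adjusted p was 0.0542. Cxcl14 was the only called member of 26 tested chemokine and cytokine genes, whose median was 0.079.

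Aqp4, a water channel, fell by 0.92 ± 0.18 (adjusted p = 0.0444), with nulliparous arrays apart at -0.07 to 0.44 against -1.09 to -0.30 and lactating arrays overlapping at -2.07 to -0.96 against -2.65 to -1.74. A second probe of Aqp4 gave -0.81. Emb, embigin, a chaperone of lactate transporters, was at least 1.75-fold higher (0.97 ± 0.17, adjusted p = 0.0247), as no nulliparous wild-type array was above background. Wdfy4, a protein needed by dendritic cells for cross-presentation, was 0.80 ± 0.14 higher (adjusted p = 0.0235), with overlap in nulliparous but not in lactating mice, and a second Wdfy4 probe was above background on 0 arrays. The kinase gene Map2k4, an activator of JNK and p38, fell by 0.32 ± 0.06 (adjusted p = 0.0247), but its second probe, bright on all 16 arrays, gave 0.019, so the probes disagreed and the mean of probes was not called (adjusted p = 0.286). Smaller rises were those of the methionyl-tRNA synthetase Mars1 (0.28 ± 0.05), the ankyrin protein Anks3 (0.29 ± 0.06), the peptidase Thop1 (0.33 ± 0.06) and Kctd6, an adaptor of cullin ligases (0.30 ± 0.06), with adjusted p of 0.028, 0.0457, 0.0444 and 0.0299. The arrays of Mars1, Anks3, Thop1 and Kctd6 were apart within each state, which is part of how they came to be named. The RIKEN genes 3110070M22Rik (1.05 ± 0.17, adjusted p = 0.0134) and 5830444B04Rik (at least 2.48-fold higher, adjusted p = 0.0443, above background on 6 of 16 arrays) completed the set and were chosen after their values were seen. Of the 13, the calls of Prpf19, Chrnb4 and 3110070M22Rik held without any 1 array, and each of the other 10 ended in at least 1 such fit, with a largest adjusted p of 0.136 (Anks3). Without nulliparous knockout replicate 4 the calls of Aqp4 (adjusted p = 0.0742), Thop1 (0.0575) and 5830444B04Rik (0.0742) ended. Normexp also ended the calls of 3110070M22Rik (0.37, adjusted p = 0.0547), 5830444B04Rik (0.61, 0.0669), Emb (0.28, 0.158), Anks3 (0.17, 0.16) and Mars1 (0.23, 0.215).

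**Figure D3:**
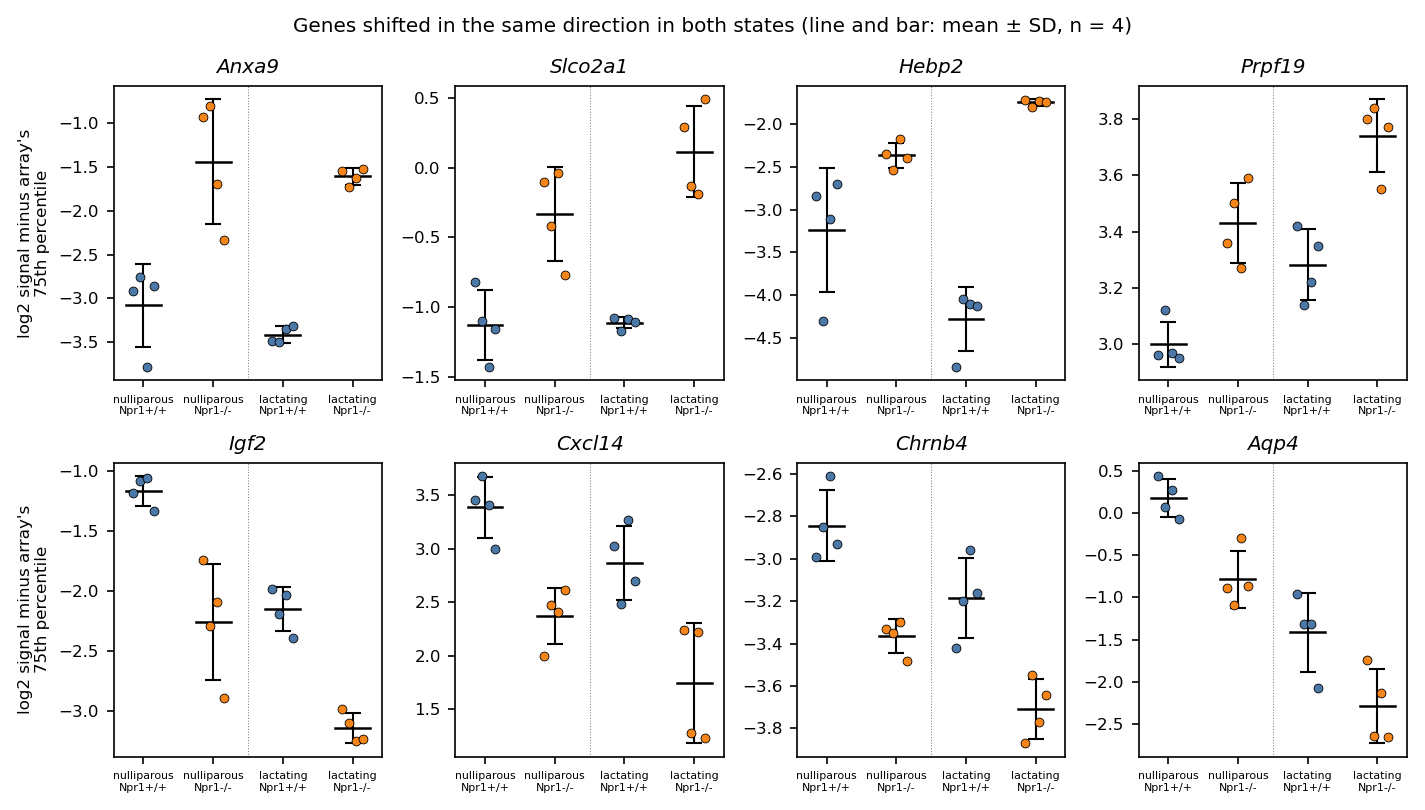
Level on each array (y axis, log2 level relative to the 75th percentile) of 4 risen and 4 fallen genes in the 4 groups, with points for single mice and lines and bars for the mean ± SD of 4. Anxa9, Slco2a1 and Hebp2 do not overlap over all 8 against 8 arrays, Prpf19, Igf2, Cxcl14 and Chrnb4 are apart within each state, and the lactating arrays of Aqp4 overlap.

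Other calls in the average came from 1 state. Tchhl1 and Tchh are neighbouring genes for trichohyalin, a structural protein of the hair follicle, and its relative. Tchhl1 read -6.12, -5.93, -5.54 and -5.69 in nulliparous wild-type ventricles, below background on all 4, and -1.23, -0.63, -2.07 and -1.30 in nulliparous knockouts. In lactation it read 1.12, 0.39, 1.06 and 0.40 against 0.69, 0.71, -0.12 and -0.09, so the genotypes overlapped. It was at least 6.05-fold higher in nulliparous knockouts (adjusted p = 2.73e-06) and differed by -0.44 in lactation (adjusted p = 0.737). In the average it was at least 2.11-fold higher (fitted difference 2.03 ± 0.21, adjusted p = 0.000182), and the interaction was called (fitted -4.96, adjusted p = 8.32e-05).

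Tchh followed the same course and was chosen after its values were seen. It was at least 3.41-fold higher in nulliparous knockouts, with arrays at -2.54 to -1.66 against -5.53 to -4.20, and differed by -0.09 in lactation. Plaat1, a phospholipase and acyltransferase, read -2.40, -2.47, -3.34 and -2.29 in nulliparous wild-type and 0.82, 0.80, 2.14 and 2.37 in nulliparous knockout ventricles. In lactation it read 2.44, 2.55, 2.56 and 2.30 against 2.71, 2.70, 2.65 and 2.60. Knockout arrays were above wild-type arrays in both states, but the rise was 17.9-fold in nulliparous mice (adjusted p = 1.48e-05) and 1.15-fold in lactation (adjusted p = 0.943), with an interaction of -3.96 (adjusted p = 0.00169). Crispld1, a secreted cysteine-rich protein, was at least 2.19-fold higher in nulliparous knockouts and 0.56 higher in lactation (interaction -2.26, adjusted p = 0.0184). Without nulliparous knockout replicate 4 the averages were 2.03 for Tchhl1, 1.34 for Tchh, 2.04 for Plaat1 and 1.63 for Crispld1. Normexp ended the average calls of Tchhl1 (0.45, adjusted p = 0.165), Tchh (0.30, 0.176) and Crispld1 (0.33, 0.0814) but not that of Plaat1 (1.46, 0.000305). Of 29 alternatives, 1 ended the call of Plaat1 (adjusted p = 0.14) and 3 that of Tchhl1 (largest adjusted p 0.248).

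Further calls of this kind lay outside the naming rule and were chosen after their values were seen. Actg2, the enteric smooth muscle actin, was 0.97 higher in nulliparous knockouts and -0.07 in lactation (interaction -1.04, adjusted p = 0.0137), with nulliparous arrays at -2.50 to -2.25 against -1.61 to -1.34. The lysosomal mannosidase Manba, the bicarbonate transporter Slc4a8 and the predicted gene Gm35438 were higher by 1.19, 1.89 and 1.28 in nulliparous mice (adjusted p of 0.0272, 0.0272 and 0.00542) and by 0.35, 0.54 and 0.40 in lactating mice, with no interaction called. In lactation, Adora3, the A3 adenosine receptor, read -3.86 to -3.56 against -2.30 to -1.20 (1.90, adjusted p = 0.000545), and in nulliparous mice it overlapped at -1.56 to -1.04 against -1.75 to -1.14 (interaction 2.03, adjusted p = 0.0161). Cdc23, a subunit of the anaphase-promoting complex, had 1.01 in lactation and -0.06 in nulliparous mice (interaction 1.07, adjusted p = 0.0161). The average call of Actg2 ended without nulliparous wild-type replicate 1 or lactating knockout replicate 4 (largest adjusted p 0.0597), and that of Cdc23 without nulliparous wild-type replicate 1 or lactating knockout replicate 3 (0.0532). It ended in 6 of the 16 such fits for Adora3 (0.0735), 6 for Slc4a8 (0.0775) and 9 for Manba (0.0761), and in none for Gm35438. Normexp ended the calls of Actg2 (0.17, adjusted p = 0.202), Cdc23 (0.20, 0.214), Adora3 (0.38, 0.139) and Slc4a8 (0.68, 0.0595).

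**Figure D4:**
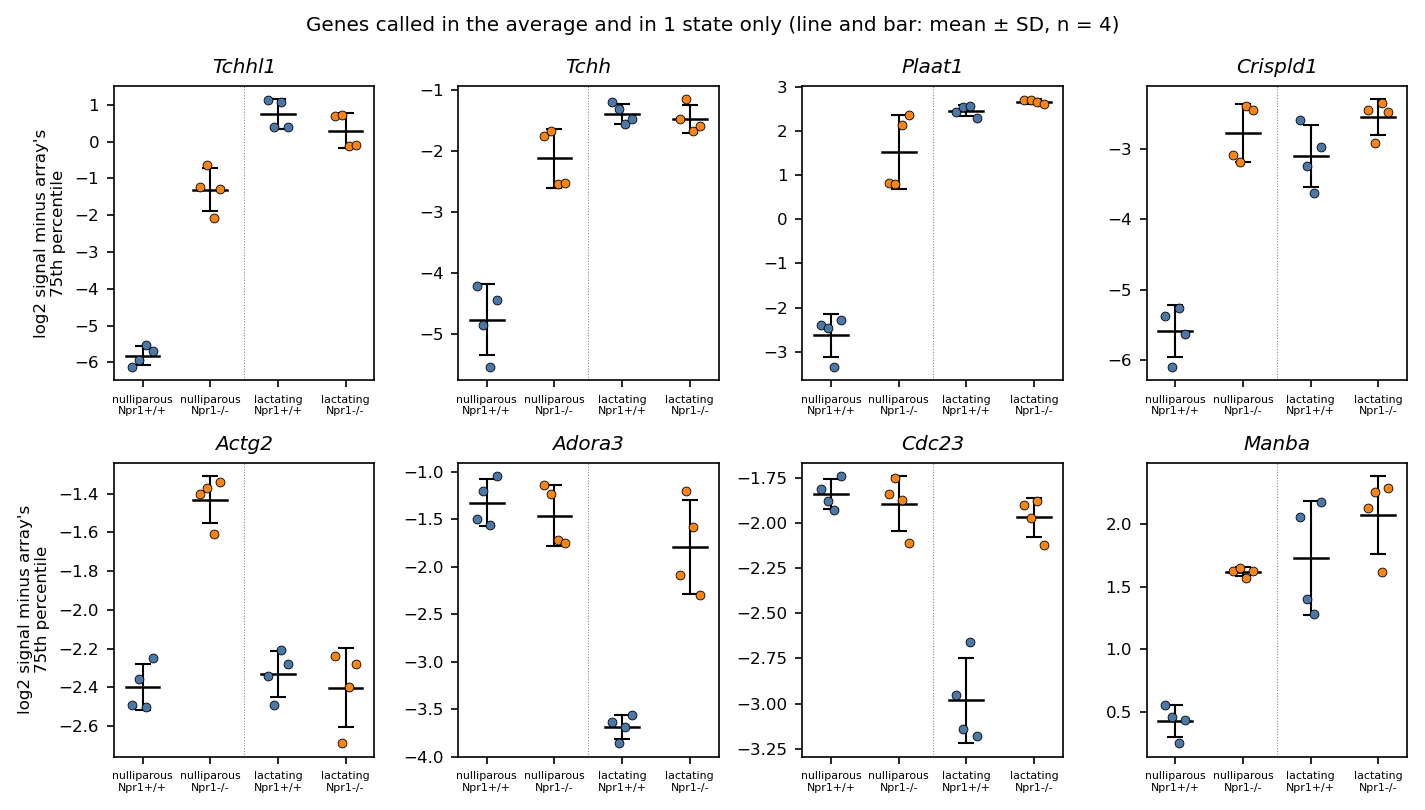
Level on each array (y axis, log2 level relative to the 75th percentile) of 8 genes called in the average and in a single state, with points for single mice and lines and bars for the mean ± SD of 4. Tchhl1, Tchh, Plaat1, Crispld1, Actg2 and Manba differ between genotypes in nulliparous mice, and Adora3 and Cdc23 in lactating mice.

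Another 4 falls were called in lactation and in the average and kept their sign in nulliparous mice, with no interaction called (adjusted p of 0.629 to 0.68). Smco2, a single-pass membrane protein gene, fell by 1.19 ± 0.21 (adjusted p = 0.0247) with 0.63 in nulliparous and 1.75 in lactating mice, and a second probe gave -1.23. Abr, a GTPase-activating protein for Rac, fell by 0.85 ± 0.15 (adjusted p = 0.0284), by 0.37 and 1.34 in the 2 states. The transcription factor gene Glis1 and the RIKEN gene 6430584L05Rik, both chosen after their values were seen, fell by 0.43 and 0.37 (adjusted p of 0.0432 and 0.0372). Each of these 4 calls ended in at least 7 of the 16 fits that left out 1 array, and normexp ended those of Glis1 (-0.30, adjusted p = 0.154) and 6430584L05Rik (-0.28, 0.0859). Without nulliparous knockout replicate 4 the call of Glis1 ended (adjusted p = 0.059). Of the 13 interaction calls, 4 were not called in the average, namely Pi4kb, St7l, Bcl2l15 and Gm3448, the last pair named after their values were seen. Pi4kb, a phosphatidylinositol 4-kinase, differed by 0.28 in nulliparous and -0.94 in lactating mice (interaction -1.22, adjusted p = 0.00169), and St7l by -0.55 and 1.10 (1.65, adjusted p = 0.0024). Pi4kb was called in the average without nulliparous knockout replicate 3 or 4.

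The markers of cardiac load and growth were not called in the average. Acta1, the skeletal actin of the fetal programme, was 0.77 ± 0.30 higher (95% interval 0.13 to 1.41, adjusted p = 0.338). The atrial peptide gene Nppa was 0.56 ± 0.24 higher (0.05 to 1.08, adjusted p = 0.394), and Nppb, the B-type peptide gene, 0.49 ± 0.27 (-0.09 to 1.08, adjusted p = 0.536). Nppa read 7.56 to 8.46 against 7.78 to 9.46 in nulliparous and 8.66 to 9.56 against 8.89 to 10.14 in lactating mice, so the genotypes overlapped. The metalloproteinase inhibitor Timp1 had 0.48, the matrix gene Postn 0.30 and the stress gene Ankrd1 0.29, while Col1a1 (-0.13), Col3a1 (-0.11), Ccn2 (-0.11), Myh6 (-0.13) and Myh7 (-0.63 ± 0.45) were below 0. Nulliparous knockout replicate 4 differed from the mean of the other arrays of its group by -1.09 for Nppa and by -2.08 for Myh7. Nr3c2, the mineralocorticoid receptor, had 0.14 and the pyruvate dehydrogenase kinase gene Pdk4 had -0.01 ± 0.33, the mean of 0.82 and -0.85. Il6 was not tested, as it failed the filter.

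Of the 38 gene lists, 24 of pathways and 14 of cell types, 2 had a called member, the adipocyte list and the chemokines. In the natriuretic peptide system 0 of 8 tested genes were called (1 higher at an unadjusted p under 0.05, with 6.57% of all genes), and the clearance receptor Npr3 had 0.20 and the related receptor Npr2 -0.05. Among 20 genes of cyclic GMP synthesis and breakdown 0 were called. At an unadjusted p under 0.05 Pde10a (0.45) was higher and Rgs2, a regulator of G proteins that protein kinase G activates (-0.46), Pde1a (-0.21) and Pde1b (-0.15) were lower. Over all genes 6.57% were higher and 4.46% lower at that level. In the hypertrophy list 0 of 27 were called. At an unadjusted p under 0.05, 6 were higher and 2 lower, beside 6.57% and 4.46% of all genes. The smallest p was that of the Z-disc gene Xirp2 (0.41, adjusted p = 0.0886) and the largest difference that of Uchl1 (0.80, adjusted p = 0.175). In TGF-beta signalling 0 of 26 were called, with 7 higher and 1 lower at that level, beside 6.57% and 4.46% of all genes. The 7 were the inhibitory Smads Smad6 (0.41) and Smad7 (0.34), the endothelial receptors Eng (0.26) and Acvrl1 (0.23), Ltbp2 (0.64), Ltbp3 (0.15) and Skil (0.24). The activin antagonist Fst was the lower one (-0.89, adjusted p = 0.0884).

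Matrix and metabolic lists had medians in the average near that of all genes (0.029). The extracellular matrix list had a median of 0.064 over 42 genes, fatty acid oxidation 0.057 over 28, the PPAR list 0.034 over 22 and the respiratory chain 0.023 over 46. In the respiratory chain 0 of 46 genes were below 0 in nulliparous mice (median 0.13, beside 0.053 for all genes) and 43 of 46 in lactating mice (median -0.092, beside -0.00047). In the average 1 of the 46 was higher at an unadjusted p under 0.05, beside 6.57% of all genes. The immediate early genes had a median of 0.25, with 0 called and 20 of 25 above 0, beside 8435 of all 14060 genes. In the neutrophil and mast cell list 0 of 9 tested genes were called, 5 were above 0 and the median was 0.049. Its lowest members, the neutrophil alarmins S100a8 and S100a9, differed by -1.66 (adjusted p = 0.176) and -1.78 (adjusted p = 0.0731).

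Among cell types, 18 of 19 macrophage markers were above 0, beside 8435 of all 14060 genes, with a median of 0.25. The median was 0.088 in nulliparous mice (0.053 for all genes) and 0.345 in lactating mice (-0.00047 for all genes). Of these 19 markers 0 were called and 1, Mertk (0.37), was higher at an unadjusted p under 0.05, beside 6.57% of all genes. Their summed level, in multiples of the array's 75th percentile, was 52.8 to 63.7 against 50.5 to 86.4 in nulliparous and 88.9 to 93.5 against 92.6 to 108.1 in lactating mice, so the genotypes overlapped. The epicardial and mesothelial list had the highest median, 0.45 over 7 tested genes, 5 of 12 having failed the filter or lacking a probe, and it was 0.13 with genes below background set to their bound. Wt1 (0.52) and Krt18 (0.50) were higher at an unadjusted p under 0.05, beside 6.57% of all genes. Ventricular cardiomyocyte, fibroblast, endothelial and smooth muscle lists had medians of -0.044, 0.015, 0.094 and 0.036, with 0 called in each. The part that these cell types had in the called genes was not tested.

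**Figure D5:**
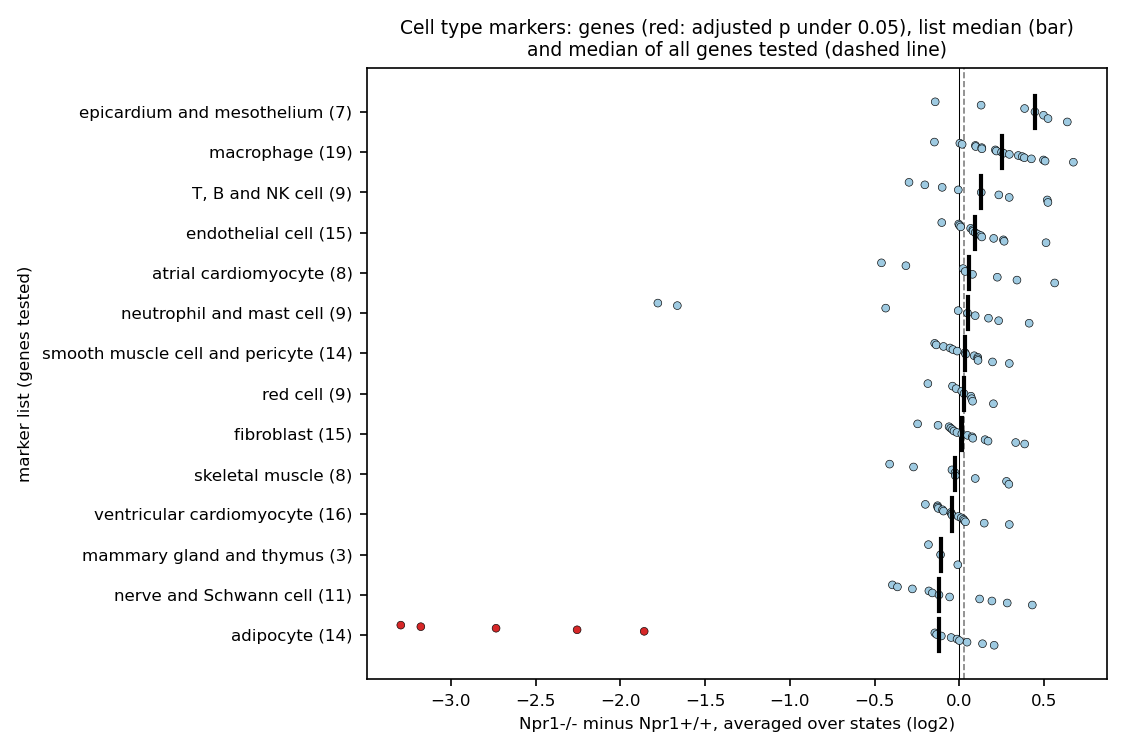
Genotype difference averaged over states (x axis, log2) for each tested gene of 14 cell type marker lists (rows, number tested in brackets), with red points for called genes, a bar for the list median and a dashed line at the median of all genes. The 5 called genes are adipocyte markers between -3.29 and -1.86, while the other adipocyte markers lie near 0.

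Npr1 lies on chromosome 3, so calls were counted there. It held 6 of the 39 called genes (15.4%) and 4.77% of the genes tested, which is 0.896% of its 670 tested genes against 0.277% of all. They were Car3, Tchh, Tchhl1, Anxa9, Adora3 and Manba, 5 higher and 1 lower in knockouts. The 13 genes with a called interaction included Tchhl1, Tchh, Adora3, Pi4kb and St7l on this chromosome. Among the 20 tested genes on each side of Npr1 in gene order 0 of 40 were called and 3 had an unadjusted p under 0.05, among 50 on each side 2 of 100 were called and among 100 on each side 3 of 200. At an unadjusted p under 0.05 the shares were 7.5%, 17% and 14.5% of these windows, 14.2% of the chromosome and 11% of all genes. On slide 1 alone 3 genes of chromosome 3 were called and on slide 2 alone 0, and without nulliparous knockout replicate 3 there were 12.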

How the data were processed

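Per the labels, 200 ng of total ventricular RNA from each mouse was labelled with Cy3 and hybridised to 1 one-colour Agilent array. The authors deposited, for each array, linear spot intensity values from Agilent Feature Extraction 10.7.3.1, which per the file headers were background-subtracted and spatially detrended but not scaled across arrays. A second deposited file holds the authors' log2 values, which over 24444 probes followed the log2 scanner signal less the 75th percentile and less the mean of nulliparous wild-type arrays (column medians -0.382 to 0.0318), and which served as an alternative. Of 62976 spots, 59305 were not controls and gave 55681 probes. RefSeq's GRCm38.p6 names covered 27793 of 28167 probes with a RefSeq accession, and the probe with the highest mean stood for a gene. Control spots and values marked as outliers were left out, and no probe was saturated. limma 3.58.1 (R 4.3.3, with the packages data.table and jsonlite) fitted 4 group means to 16 arrays (12 residual degrees of freedom), with contrasts for the genotype average, each state and the interaction. The fit was tested on simulated data. Promoter windows were read with Python and pandas, and figures drawn with matplotlib 3.10.9.

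The rule for named genes took Npr1, 14 markers, the 10 largest rises and 10 largest falls with genotypes apart in both states, the 8 smallest adjusted p, the 6 largest rises and falls called in neither state, called genes within 20 genes of Npr1, up to 2 called members a list and 4 by interaction, placeholders excluded. It took 42 genes. The members, the lists and this rule were chosen with earlier results of these data known. Alternatives were normexp (offset 50, on the median spot signal, since the mean named in the plan is not used here), quantile normalization, median centring, other filters, the mean of probes, an additive fit, a trended robust variance, array weights, replicate and slide blocks, single slides, the authors' log2 values and the omission of single arrays. Replicate numbers were not treated as pairs in the main fit, though each stood for the same slide and row in every group. Numbers 1 and 2 were on slide 1, and 3 and 4 on slide 2. Of 24 same-number correlations, from -0.135 to 0.176, 8 exceeded 0.1, and the replicate block is given as an alternative. The labels name independent mice, and no array was left out.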

Additional observations from a re-analysis of the deposited data

Results flagged for a closer look

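Of the 54 genes examined, 11 had a genotype difference that changed with reproductive state by limma's test of the interaction, with adjusted p from 8.32e-05 to 0.0309. The lactating difference minus the nulliparous difference was -4.96 for Tchhl1, -3.96 for Plaat1, -2.84 for Pck1, -2.75 for Cidec, -2.72 for Tchh, -2.26 for Crispld1, -1.22 for Pi4kb and -1.04 for Actg2. It was 2.03 for Adora3, 1.65 for St7l and 1.07 for Cdc23. These are fitted values, and those of Tchhl1, Tchh, Crispld1, Pck1 and Cidec rest partly on a group with no array above background, so their size is not measured.

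Single arrays stood apart from the other 3 of their group in 12 of 216 gene and group combinations, by a gap to the nearest array beyond Dixon's 95% limit for 4 values, and chance gives about 1 in 20. The nulliparous wild-type arrays concerned were replicate 3 for Anxa9 (-3.78) and Car3 (0.33), replicate 1 for Cyp2e1 (-1.25) and replicate 2 for Prpf19 (3.12). Among nulliparous knockout arrays they were replicate 1 for Acta1 (3.03) and replicate 4 for Cfd (0.39). Among lactating wild-type arrays they were replicate 1 for Hebp2 (-4.84), Mars1 (1.71) and Pi4kb (0.50) and replicate 3 for Wdfy4 (-0.66). Among lactating knockout arrays they were replicate 4 for Col3a1 (5.55) and replicate 2 for Pi4kb (-0.56). Without nulliparous knockout replicate 4, Cfd fell by 3.33 and stayed called (adjusted p = 8.41e-06).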

How the results depend on the processing

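All 39 calls kept their sign in every alternative that could test them, but 0 kept the call in all of them, and 20 kept it without any 1 array. The 39 calls in the average became 69 with median centring, 20 with the filter on all 16 arrays, 20 with the additive fit, 353 with array weights, 11 on slide 1 and 7 on slide 2, and 21 to 55 without 1 array. The 14 nulliparous calls became 7 with normexp, 6 with no filter, 5 with the filter on 16 arrays, 256 with array weights, 9 with the replicate block and 6 on slide 1 (7 to 20 without 1 array, with 7 without nulliparous wild-type replicate 1, 2 or 4, 8 without nulliparous knockout replicate 3 and 9 without lactating knockout replicate 3). The 28 lactating calls became 44, 17, 18 and 211 in the first 4 of these, 16 on slide 1 and 4 on slide 2 (13 to 48 without 1 array, with 16 without nulliparous wild-type replicate 1, 18 without lactating wild-type replicate 2 or knockout replicate 1, 13 without lactating knockout replicate 4 and 48 without nulliparous knockout replicate 4). The 13 interaction calls became 6 with the filter, 77 with array weights, 6 on slide 1 and 1 on slide 2 (10 to 20, the latter without nulliparous knockout replicate 4). The 6 calls on chromosome 3 became 2 with the filter, 2 with the additive fit, 32 with array weights, 3 on slide 1 and 0 on slide 2 (4 to 12). The 5 adipocyte calls became 1 with the filter and 0 on slide 2, and stayed 5 without any 1 array. A filter on all arrays tests fewer genes and a single slide has fewer samples, and for the other settings the cause was not tested. With the replicate block the average gave 39 calls, 16 higher and 23 lower, 28 of them shared, and the interaction 9.

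Signs turned for genes that were not called: Pdk4 (0.059 with median centring, 0.30 with array weights, 0.094 on slide 1 and -0.15 to 0.20 without 1 array), Postn (-0.040 on slide 1), Col1a1 (0.081 on slide 2), Col3a1 (0.27 on slide 2, -0.26 to 0.051 without 1 array) and Nr3c2 (-0.14 on slide 2, -0.023 to 0.24 without 1 array). Normexp kept 24 of the 39 calls, no filter 25 and the authors' log2 values 39. Of the 39 genes 24 were above background on all 16 arrays, and the filter on 16 arrays kept 20 of these calls.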
